A study of Mus musculus with 9 samples.

Results

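Lin28a, Lin28b, Igf2bp1, Igf2bp2, Igf2bp3, Hmga1 and Hmga2 are 7 genes of the fetal growth programme, taken by gene symbol from a table of 46078 mouse genes. All 7 symbols had 1 row each. Sequencing of transcript 3′ ends had been done on 6 lymphomas (34, 53, 56, 70, 72 and 86), labelled as thymus T cell lymphoma cells induced by MYCN, and on 3 control preparations of splenic CD4+ T cells (1, 2 and 3). Every mouse was of the C57BL/6J strain. The labels give no age, sex, treatment, batch, transgene promoter or Cre line, and do not say whether each library came from a different animal, so p-values measure the spread between these libraries, which may be technical. The series asks how aberrant MYCN changes gene activity in T cell lymphoma, and for these genes the comparison is lymphoma against control CD4 cells.

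LIN28A and LIN28B are RNA-binding proteins that bind precursors of the let-7 microRNAs and block their maturation. Mature let-7 in turn represses mRNAs that carry its seed match, among them those of LIN28, the IGF2BP proteins and HMGA2. IGF2BP1, IGF2BP2 and IGF2BP3 bind mRNAs, including transcripts with N6-methyladenosine (m6A), and affect their stability, localisation and translation. HMGA1 and HMGA2 are small chromatin proteins that bind AT-rich DNA. In mouse blood development LIN28B and its partners are known for their high level in fetal cells and their decline in the adult.

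The let-7 seed and its match in the members are shown first. The members are known let-7 targets, so the choice of genes already favoured finding a match in them. Of 11 mature 5p sequences named let-7 or miR-98 in RefSeq (GRCm38.p6), 10 share 1 seed, bases 2 to 8, written in capitals in 4 of them:
let-7a-5p: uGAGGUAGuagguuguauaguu
let-7b-5p: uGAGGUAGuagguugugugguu
let-7g-5p: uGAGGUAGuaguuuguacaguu
miR-98-5p: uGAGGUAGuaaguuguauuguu

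The match to this seed, CTACCTC, was searched on the transcribed strand of the longest annotated 3′ UTR of each gene (GENCODE M21, GRCm38). One site of 30 bases is given for each member, the first after the stop codon, in the sense of the mRNA and with the match in capitals:
Lin28a, chr4:134005188-134005217, minus strand: tggagtgcacagcctgttgaaCTACCTCat
Lin28b, chr10:45381021-45381050, minus strand: cccttcacccgggcgggaagtCTACCTCat
Igf2bp1, chr11:95961777-95961806, minus strand: ggcagtgctgtgcgaagtaaaCTACCTCaa
Igf2bp2, chr16:22059472-22059501, minus strand: agaaaaacacacaaataaaagCTACCTCag
Igf2bp3, chr6:49086786-49086815, minus strand: taaacgtgcatttttactcaaCTACCTCag
Hmga1, chr17:27563271-27563300, plus strand: atcttctcctctgttcacaaaCTACCTCtg
Hmga2, chr10:120364223-120364252, minus strand: gggggcgccgacattcaatttCTACCTCag

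All 7 members held at least 1 match, against 8.7% of 21670 genes with an annotated 3′ UTR. Lin28b, Igf2bp1 and Hmga2 had 4 matches each, Lin28a had 2, and Igf2bp2, Igf2bp3 and Hmga1 had 1 each. Among genes with a 3′ UTR of like length (within 1.25 times), the share with at least 1 match ran from 8.1% at the length of Hmga1 to 34.3% at that of Igf2bp1. In Hmga2, 1 of the 4 matches was extended to 8 bases by a following adenosine, and in Igf2bp1 this held for 3 of 4. Only 0.12% of genes with a 3′ UTR of like length to that of Hmga2 had as many matches. The members are textbook let-7 targets, so these counts describe the genes and support nothing about let-7 in these cells.

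**Figure D1:**
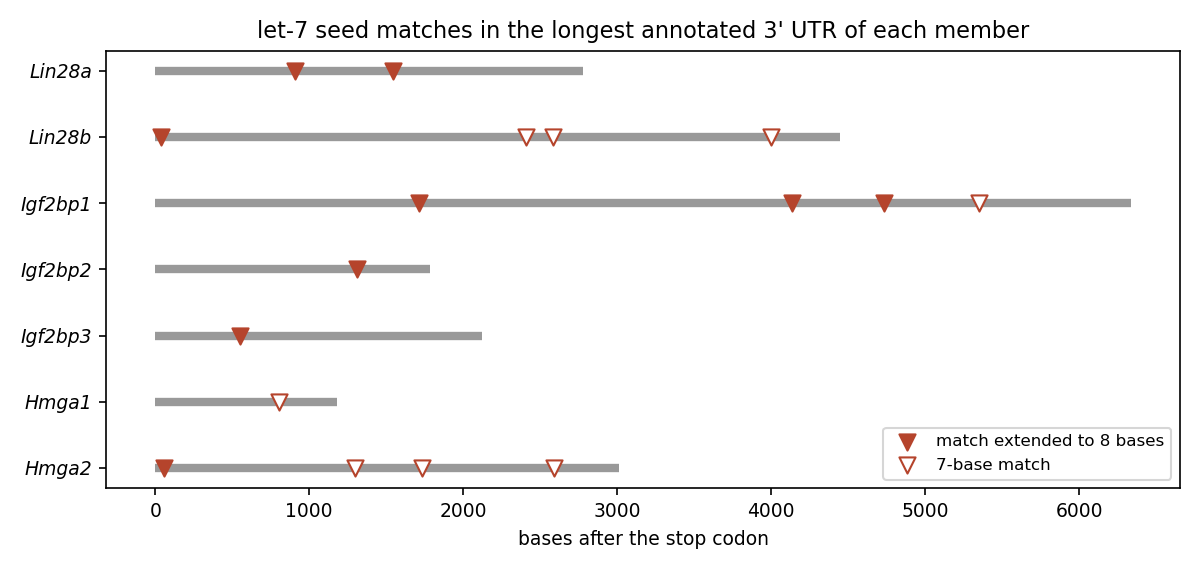
Position of each let-7 seed match in the longest annotated 3′ UTR of the 7 genes, in bases after the stop codon. Grey lines give the length of the 3′ UTR, open triangles a match of 7 bases and filled triangles a match extended to 8 bases. Lin28b, Igf2bp1 and Hmga2 carry 4 matches each.

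Promoters were searched for CACGTG, the palindromic E-box that MYC family proteins can bind, in RefSeq windows from 250 bases before to 50 bases after the start site (GRCm38.p6). The motif reads the same on both strands. Igf2bp3 held 2 copies, which begin 23 bases before and 6 bases after the start site, and Lin28b held 1, which begins 49 bases before it. No copy was found in the windows of Lin28a, Igf2bp2, Hmga1 or Hmga2, and 7.2% of 32851 windows held at least 1. CATGTG, with its reverse complement CACATG, was in none of the members' windows and in 14.2% of all windows. The 100 bases around the start site of both genes with a match are given, with the motif in capitals; they were chosen after the matches were counted:
Igf2bp3, chr6:49214925-49215024, minus strand: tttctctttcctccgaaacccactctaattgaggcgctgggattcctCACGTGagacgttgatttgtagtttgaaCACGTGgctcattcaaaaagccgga
Lin28b, chr10:45470172-45470271, minus strand: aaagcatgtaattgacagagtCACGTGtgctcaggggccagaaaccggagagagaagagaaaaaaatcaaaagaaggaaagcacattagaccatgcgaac

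Igf2bp3 was counted in every lymphoma and every CD4 library, and Lin28b in none. Whether the motif has a part in either level was not tested. The RefSeq start site of Lin28b lies inside the gene as GENCODE draws it. A match is letters in a window, and binding was not measured in the RNA data.

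Reads counted in genes ranged from 11170704 to 15769679 in lymphoma and from 8099960 to 10808828 in CD4. Levels are given as counts per 1000000 reads of the TMM-scaled library (CPM), and 3 counts, the limit that a count of 0 allows, correspond to 0.184 to 0.274 CPM in lymphoma and 0.275 to 0.360 CPM in CD4. These floors cover counting error only. The row of mouse Mycn held 4 counts in all 6 lymphomas together and 6 in CD4, so it does not report the driver. Of 14 T cell markers, 4 were lower in lymphoma (Cd4, Cd2, Cd28 and Bcl11b) and 10 were not called, with summed levels of 4029 to 7982 CPM in lymphoma and 6233 to 6662 CPM in CD4. Cd3d lay at 386 to 512 CPM in lymphoma and 421 to 454 CPM in CD4, whereas Cd4 lay at 6.04 to 71.9 CPM and 199 to 263 CPM. Lymphoma 53 stood apart in Trbc1, at 5.11 CPM against 438 to 1836 CPM in the other lymphomas. Trdc was at 317 CPM in lymphoma 56 and 260 CPM in lymphoma 86, and at most 0.589 CPM in the other lymphomas. In CD4 it was at 14.9 to 18.1 CPM.

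The low-count filter kept 15401 genes and 4 of the 7 members: Igf2bp2, Igf2bp3, Hmga1 and Hmga2. All 4 were higher in lymphoma at an adjusted p under 0.05 (edgeR quasi-likelihood test, Benjamini-Hochberg over all tested genes). The filter asks for enough reads in as many libraries as the smaller group holds. Igf2bp3 and Hmga2 met this only through the lymphomas, as their CD4 counts were 51, 3 and 5, and 6, 26 and 8. Genes this low in CD4 are tested only if high in lymphoma, so the direction of these calls was partly set by the filter. Of all tested genes, 24.7% were called higher and 21.9% lower, or 46.6% in either direction, so a call by itself is common in this comparison. The balance depends on the scaling: upper quartile scaling gave 3414 higher and 3707 lower calls against 3798 and 3376 here, and moved the median log2 fold change of all tested genes from 0.04 to -0.06. Every lymphoma lay above every CD4 library for Igf2bp2, Igf2bp3 and Hmga1 and not for Hmga2. The same separation held for 22.6% of tested genes. Lin28a, Lin28b and Igf2bp1 did not pass the filter and are described by their counts.

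**Figure D2:**
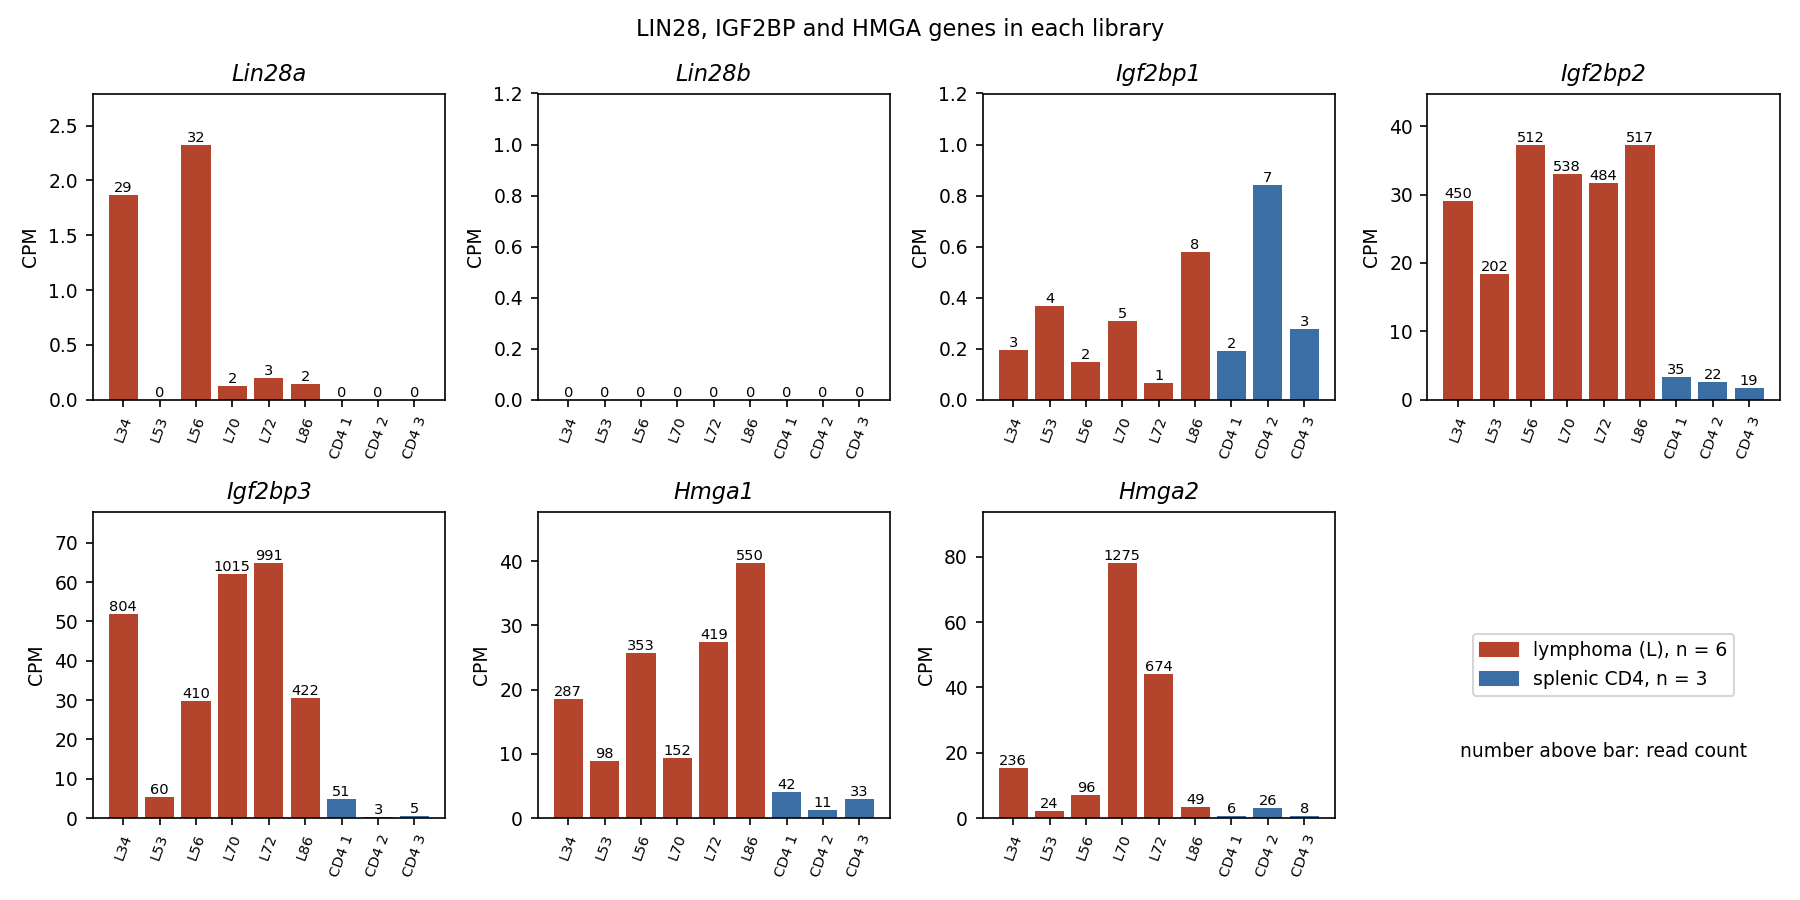
CPM of each member in the 6 lymphomas (red) and the 3 splenic CD4 preparations (blue), each panel with its own axis from 0, and the read count above each bar. Lin28a has 29 and 32 counts in lymphomas 34 and 56 and at most 3 elsewhere, Lin28b has none, and Hmga2 spans 2.19 to 78.1 CPM among the lymphomas.

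LIN28 genes had few or no counts. Lin28a (ENSMUSG00000050966, chr4:134003330-134018841, minus strand), the paralogue typical of embryonic stem cells, had 29 counts in lymphoma 34, 32 in lymphoma 56, 3 in lymphoma 72, 2 in each of lymphomas 70 and 86, and 0 in lymphoma 53 and in CD4 1, 2 and 3. Its level was 1.87 CPM in lymphoma 34 and 2.33 CPM in lymphoma 56. Those 2 libraries were above the floor, the others were at or under it, and the groups overlapped through lymphoma 53.

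The lymphoma mean of Lin28a, 0.777 ± 1.04 CPM (SD, n = 6), was 2.53-fold the mean floor of the CD4 libraries, 0.307 CPM. As far as counting error goes, this ratio is a lower bound on the fold change over CD4. Lymphomas 34 and 56 carry the lymphoma mean: the bound was 1.82-fold without lymphoma 34 and 1.52-fold without lymphoma 56. Exact two-sided permutation of the libraries gave p = 0.0952, and 0.190 after Benjamini-Hochberg adjustment over the 2 members tested this way. The smallest possible p is 0.0238 only where no assignments tie. Lymphoma 53 had 0 counts, as did CD4 1, 2 and 3, so assignments that swap it with a control tie with the observed one. The observed p was thus the smallest these counts allow for a higher level in lymphoma. This permutation could not have passed the threshold and decides nothing about Lin28a. In an edgeR fit of 24845 genes without the low-count filter the adjusted p of Lin28a was 0.0405. The log2 fold change there was 6.34, a value that depends on the prior count. In the whole table, 1001 genes (2.17%) likewise had 0 counts in every CD4 library and were above the floor in 2 or more lymphomas.

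Lymphomas 34 and 56 also had the highest summed level of myeloid markers among the lymphomas. The summed level of 10 such markers was 1455 CPM in lymphoma 34 and 2197 CPM in lymphoma 56, against 45.0 to 203 CPM in the other lymphomas and 631 to 759 CPM in CD4. Elane, the neutrophil elastase gene of granulocyte precursors, stood at 501 CPM in lymphoma 34 and 22.5 CPM in lymphoma 56, and at most 0.674 CPM in the other lymphomas. Mpo, the myeloperoxidase gene of the same cells, was at 181 and 11.5 CPM in those libraries. They were the 2 highest lymphomas for 5 of the 10 markers (Elane, Mpo, S100a8, S100a9 and Fcer1g), whereas lymphoma 86 was highest in the macrophage markers Csf1r, at 13.8 CPM, and Adgre1, at 5.13 CPM, and in Itgam. Over the group, 5 of the 10 markers were lower in lymphoma, 5 were not called and none was at 0 in a whole group. The part of these markers in the Lin28a counts was not tested.

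Lin28b (ENSMUSG00000063804, chr10:45376620-45486395, minus strand), the paralogue linked to fetal blood cells, had 0 counts in all 9 libraries. This allows at most 0.274 CPM in any lymphoma and 0.360 CPM in any CD4 library. Of all genes, 21233 (46.1%) had 0 counts in every library.

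IGF2BP genes differed among themselves. Igf2bp1 (ENSMUSG00000013415, chr11:95957163-96005940, minus strand), which stabilises mRNAs such as that of Myc, had 3, 4, 2, 5, 1 and 8 counts in lymphomas 34, 53, 56, 70, 72 and 86. It had 2, 7 and 3 counts in CD4 1, 2 and 3, so the groups overlapped in part. In CPM, CD4 2 was above every lymphoma, and lymphomas 56 and 72 were below every control. The lymphoma mean was 0.276 ± 0.183 CPM (SD, n = 6), the CD4 mean was 0.435 ± 0.353 CPM (SD, n = 3), and no difference was detectable at this depth (exact two-sided permutation p = 0.405, also 0.405 after adjustment over the same 2 tests).

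Igf2bp2 (ENSMUSG00000033581, chr16:22059009-22163299, minus strand), the paralogue that persists in many adult tissues, rose in lymphoma. Its levels were 29.0, 18.5, 37.3, 33.0, 31.7 and 37.3 CPM in lymphomas 34, 53, 56, 70, 72 and 86. In CD4 1, 2 and 3 they were 3.34, 2.64 and 1.74 CPM. The lowest lymphoma, 53, was still above the highest CD4 library. The log2 fold change was 3.59 ± 0.334 (SE), a 12.1-fold difference, with an adjusted p of 6.998e-06 in the edgeR test.

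Igf2bp2 was also the steadiest member among the tumours, with an SD of log2 CPM over the 6 lymphomas of 0.376 against a median of 0.466 over all tested genes. Without lymphoma 53 its log2 fold change was 3.70. None of the 50-base words in the last 500 bases of its transcript occurred in another annotated gene.

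Igf2bp3 (ENSMUSG00000029814, chr6:49085223-49214957, minus strand), the member of the family most tied to fetal tissues and tumours, rose as well. It stood at 51.8, 5.48, 29.8, 62.2, 64.9 and 30.5 CPM in lymphomas 34, 53, 56, 70, 72 and 86. CD4 1 had 4.87 CPM from 51 counts, CD4 2 had 0.360 CPM from 3 counts and CD4 3 had 0.459 CPM from 5 counts. Lymphoma 53 and CD4 1 were nearly level, and the other lymphomas were far above both.

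The log2 fold change of Igf2bp3 was 4.40 ± 1.02 (SE), with an adjusted p of 0.005825 in the edgeR test. CD4 1 set much of this value: without that library the log2 fold change was 6.62 with an adjusted p of 0.001955 (edgeR). CD4 1 also had the highest sum of 10 erythroid markers among the controls, 364 CPM against 106 and 151 CPM, and its part in the Igf2bp3 level was not tested. In lymphoma the erythroid sum ran from 14.2 to 890 CPM, with 1 of 9 tested markers lower, 8 not called and none at 0 in a whole group.

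Within the lymphomas Igf2bp3 varied more than Igf2bp2, with an SD of log2 CPM of 1.32, above that of 91.05% of tested genes. Its 3′ end lies within Malsu1, a gene of the opposite strand: both share 1529 exonic bases, and all 50-base words of the last 500 bases of Igf2bp3 lie in Malsu1 exons. Malsu1 itself was at 45.6 to 76.0 CPM in lymphoma and 38.5 to 39.6 CPM in CD4, a log2 fold change of 0.59 with an adjusted p of 0.0198 (edgeR). Lymphoma 53, lowest in Igf2bp3, was highest in Malsu1. The strand setting of the counting is not given in the sources used here, so reads of both genes in that stretch cannot be told apart.

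HMGA genes were both called higher in lymphoma, Hmga2 with overlapping groups and the larger spread. Hmga1 (ENSMUSG00000046711, chr17:27556497-27563674, plus strand), the paralogue common in dividing cells, was at 18.5, 8.95, 25.7, 9.31, 27.4 and 39.7 CPM in lymphomas 34, 53, 56, 70, 72 and 86. CD4 1, 2 and 3 had 4.01, 1.32 and 3.03 CPM. Every lymphoma was above every control, lymphomas 53 and 70 by the least. The log2 fold change was 2.94 ± 0.575 (SE), with an adjusted p of 0.001402 in the edgeR test.

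The level of Hmga1 is uncertain, because 88.9% of the 50-base words in its last 500 transcribed bases are not unique to it, and the table sets reads with more than 1 alignment aside. An overlapping gene of the opposite strand, AI413582, holds only 11.8% of the words. It was at 19.4 to 27.0 CPM in lymphoma and 48.1 to 62.2 CPM in CD4.

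Hmga2 (ENSMUSG00000056758, chr10:120361275-120476469, minus strand), the paralogue largely restricted to embryonic cells and tumours, varied most. Lymphoma 70 had 78.1 CPM, lymphoma 72 had 44.1 CPM, lymphoma 34 had 15.2 CPM, lymphoma 56 had 6.99 CPM, lymphoma 86 had 3.54 CPM and lymphoma 53 had 2.19 CPM. CD4 2 had 3.12 CPM, CD4 3 had 0.734 CPM and CD4 1 had 0.573 CPM. The groups overlapped, because lymphoma 53 was below CD4 2, and lymphoma 86 was close to CD4 2.

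The log2 fold change of Hmga2 was 4.12 ± 1.39 (SE), with an adjusted p of 0.03508 in the edgeR test. The adjusted p was 0.0517 without lymphoma 72, 0.112 without CD4 1, 0.119 without CD4 3, 0.0915 without the low-count filter (all edgeR) and 0.213 with limma voom, so the call rests on single libraries and settings. Without CD4 2 the log2 fold change was 5.25, and without lymphoma 70 it was 3.38, both still called in edgeR. Its SD of log2 CPM among the lymphomas was 2.0, above that of 98.15% of tested genes.

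Genes annotated across Hmga2 on the opposite strand were also high in lymphoma. 9230105E05Rik shares no exonic base with Hmga2 and was at 76.5, 0.274, 71.2, 200.3, 170 and 44.8 CPM in lymphomas 34, 53, 56, 70, 72 and 86, with at most 1.80 CPM in CD4. Its log2 fold change was 6.69 with an adjusted p of 0.0114 (edgeR). 1700006J14Rik shares 140 exonic bases with Hmga2 and was at 50.9, 0, 40.1, 58.0, 16 and 27.0 CPM in the same order, with at most 0.459 CPM in CD4. Its log2 fold change was 7.05 with an adjusted p of 0.008285 (edgeR). Lymphoma 53 was the lowest lymphoma in all 3 genes and lymphoma 70 the highest. The genes were looked up for their position after the Hmga2 values were seen, and what reads from the opposite strand add to the Hmga2 count was not tested.

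**Figure D3:**
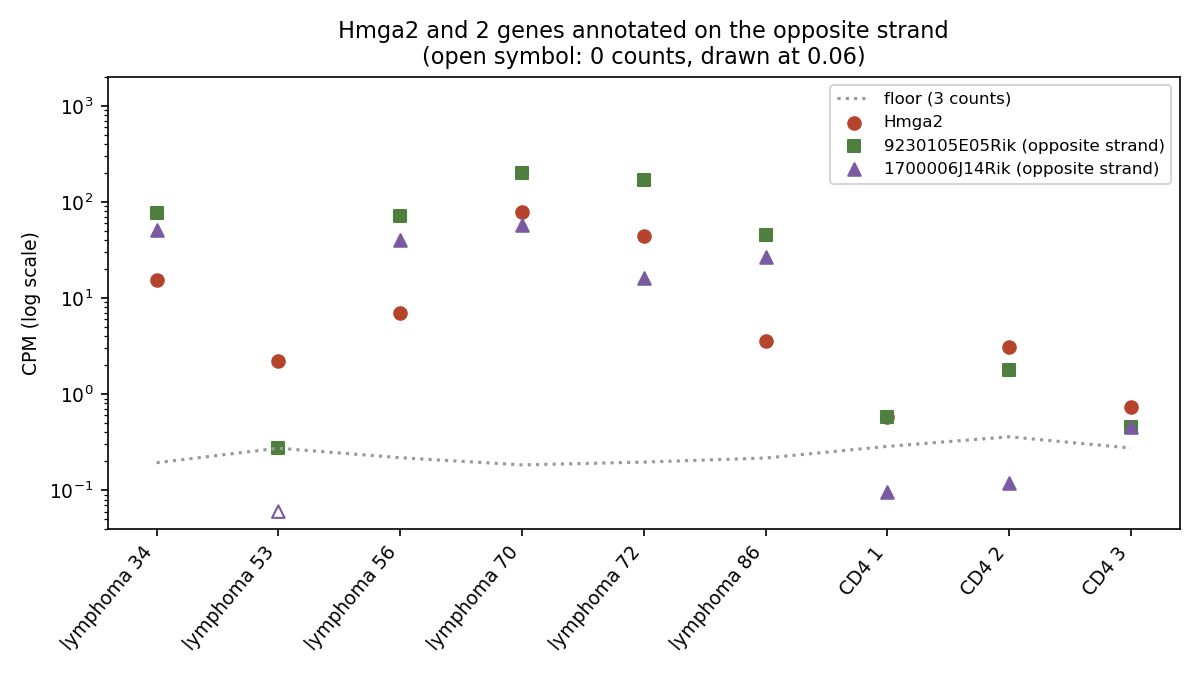
CPM on a log scale of Hmga2 and of 2 noncoding genes annotated across it on the opposite strand, in each library, with the floor of 3 counts as a dotted line and 0 counts drawn as an open symbol at 0.06. All 3 are lowest among the lymphomas in lymphoma 53 and highest in lymphoma 70.

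Lymphoma 53 was the lowest tumour in Igf2bp2, Igf2bp3, Hmga1 and Hmga2. Without it all 4 were still called in edgeR, with log2 fold changes of 3.70, 4.61, 3.09 and 4.37. Lymphomas 34, 70 and 72 shared their most used T cell receptor beta segment, Trbv12-1, with 66 of 84, 45 of 73 and 47 of 87 Trbv counts. With these 3 averaged into 1 library, an alternative added after the data were seen, all 4 were called again in edgeR, with adjusted p-values from 8.794e-05 for Igf2bp2 to 0.0476 for Hmga2.

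**Figure D4:**
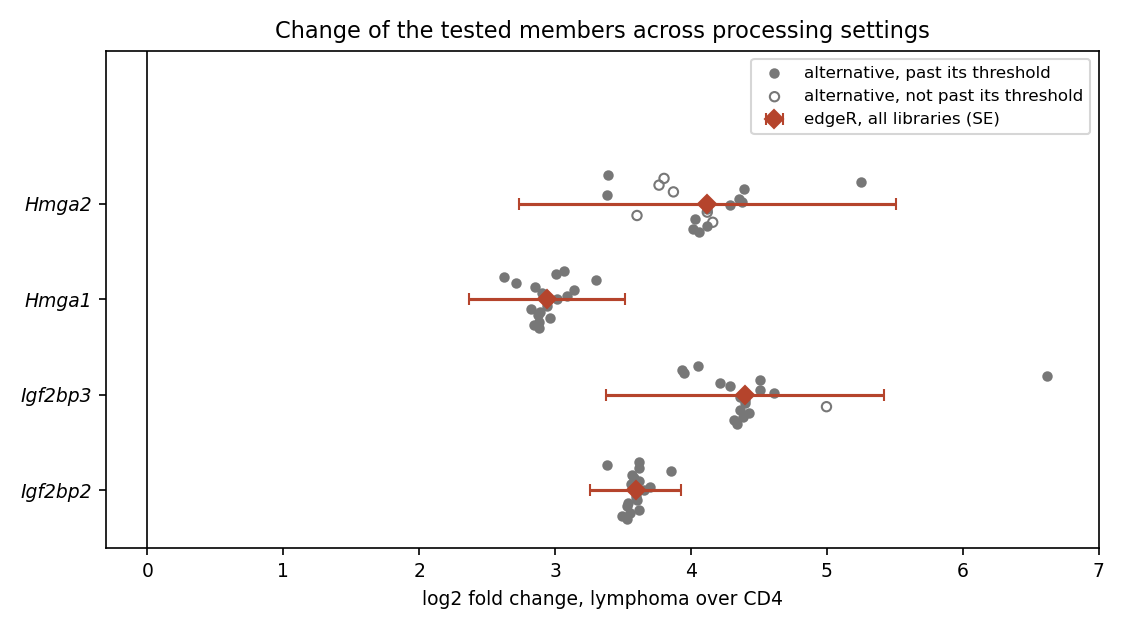
Log2 fold change of the 4 tested members in the edgeR fit of all 9 libraries (diamond, bar of 1 SE) and under the alternative settings and left-out libraries (circles, open where the gene did not pass that setting's threshold). Every value is above 0, and Hmga2 has 6 open circles, Igf2bp3 has 1 and Igf2bp2 and Hmga1 have none.

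Other measures moved together with the group. All 20 proliferation genes were higher in lymphoma, with summed levels of 4190 to 5919 CPM against 491 to 632 CPM in CD4. All 10 B cell markers were lower, with sums of 17.9 to 64.1 CPM against 1703 to 1894 CPM in the CD4 preparations, and none was at 0 in a whole group. Of 15 stromal, epithelial and endothelial markers 7 were tested, with sums of 97.8 to 181 CPM in lymphoma and 221 to 241 CPM in CD4. Pecam1 (59.3 to 81.3 CPM in lymphoma, 186 to 199 CPM in CD4) and Kdr, both listed as endothelial markers, were lower. Which cells the Pecam1 reads came from was not tested. The epithelial gene Epcam (mean 23.0 CPM in lymphoma, 1.59 CPM in CD4) and the fibroblast gene Dcn (1.72 to 7.36 CPM in lymphoma, 0 in CD4) were higher. Without Pecam1 the sums were 38.5 to 99.5 CPM in lymphoma and 33.9 to 42 CPM in CD4. Lum and Cdh5 were at 0 in every lymphoma, and Dcn, Lum, Krt5, Krt8 and Foxn1 in every control. The part of these cells and of cell division in the members' change was not tested, and in bulk RNA fewer cells of a type and less RNA per cell cannot be told apart.

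Of 24 tested genes of let-7 processing, turnover and silencing, 5 were higher, 9 lower and 10 not called. Among all tested genes 24.7% were higher and 21.9% lower. The list had a median log2 fold change of -0.21 against 0.04 over all tested genes. Upper quartile scaling gave 4 higher and 11 lower. Ago3, Ago4, Tnrc6a, Tnrc6b and Tnrc6c, which act in silencing rather than in making or destroying let-7, were among the lower calls. Ago1 and Ago2 were not called. Drosha, the nuclease that cuts primary microRNAs, rose by a log2 fold change of 1.32 (adjusted p 0.0137), and its cofactor Dgcr8 by one of 0.91 (adjusted p 0.0021), both in edgeR. Khsrp and Hnrnpa1, which bind the let-7 precursor, rose by 1.15 and 1.26 on the log2 scale.

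Zcchc11, which encodes the uridylyl transferase TUT4 that LIN28A recruits to the let-7 precursor, fell by 3.79 on the log2 scale (edgeR adjusted p 0.0151). It was at 285, 380 and 398 CPM in CD4 1, 2 and 3 and at 21.3, 107, 12.7, 4.90, 3.53 and 6.06 CPM in lymphomas 34, 53, 56, 70, 72 and 86. Lymphoma 53 thus kept the highest level of the tumours, still below every control. Its relative Zcchc6 (TUT7) fell by 0.93 on the log2 scale (adjusted p 0.0047), and the exonuclease Dis3l2, which degrades uridylated precursors, had a log2 fold change of 0.14 (adjusted p 0.617), both in edgeR. Ago4, of the Argonaute family, fell by 4.0 on the log2 scale and the RNA editor Adar by 1.52.

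Hairpin rows of the let-7 and miR-98 genes say little in a 3′ end library, which does not capture mature microRNAs. Of 10 such rows 5 had 0 counts in every library and 2 passed the filter. Mir98 had a log2 fold change of -0.13 (adjusted p 0.837) and Mirlet7b of 1.48 (adjusted p 0.388) in edgeR. Mature let-7 was not measured.

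Of 27 tested genes widely described as let-7 targets, members left out, 8 were higher, 7 lower and 12 not called, which is close to the 24.7% higher and 21.9% lower of all tested genes. Upper quartile scaling gave 7 higher and 9 lower. They had a median log2 fold change of 0.07 against 0.04 over all tested genes. Cdk6, a kinase of the G1 phase, rose by 4.09 on the log2 scale (adjusted p 2.694e-05), from 81.4 to 91.7 CPM in CD4 to 453 to 2065 CPM in lymphoma, with lymphoma 53 the lowest. Rrm2, a subunit of ribonucleotide reductase, rose by 3.36 on the log2 scale (adjusted p 1.353e-05). Zbtb16, the PLZF factor of innate-like T cells, rose by 4.22 on the log2 scale (adjusted p 0.0270) although lymphoma 53 had only 0.274 CPM against 89.0 to 140 CPM in the other lymphomas.

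Myc fell by 7.18 on the log2 scale (edgeR adjusted p 6.26e-06), from 21.9 to 26.5 CPM in CD4 to at most 0.361 CPM in lymphoma. Irs2, an adaptor of insulin and IGF receptors, fell by 4.0 on the log2 scale and the cytokine gene Il10 by 3.83, both with overlapping groups and low counts in lymphoma.

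Of 22 tested IGF2BP partners and m6A factors 12 were higher (8 with upper quartile scaling), 4 lower and 6 not called. Their median log2 fold change was 0.53 against 0.04 over all tested genes, of which 24.7% were higher and 21.9% lower. Ybx1, an mRNA-binding protein found with IGF2BP1, rose by 1.87 on the log2 scale (edgeR adjusted p 3.118e-05), from 323 to 410 CPM in CD4 to 1133 to 1966 CPM in lymphoma. Hnrnpu and Elavl1, further proteins of these complexes, rose by 1.61 and 1.46 on the log2 scale. Mettl3, the m6A methyltransferase, fell by 0.72 on the log2 scale (edgeR adjusted p 0.0194), and the m6A readers Ythdc2 and Ythdc1 fell by 0.69 and 0.59 on the log2 scale.

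Of 16 genes on a list of IGF, imprinted and other fetal genes 10 were tested. Of these 2 were higher, 4 lower and 4 not called, and Bcl11a, neither an IGF nor an imprinted gene, was among the lower calls. Their median log2 fold change was -1.23 against 0.04 over all tested genes, of which 24.7% were higher and 21.9% lower. Igf2, the transcript that gave the IGF2BP family its name, did not pass the filter and was at no more than 0.838 CPM in any library. Dlk1, an imprinted Notch-like ligand of fetal tissues, rose by 8.41 on the log2 scale (edgeR adjusted p 0.0039). It was at 307, 207, 284, 382 and 165 CPM in lymphomas 34, 56, 70, 72 and 86, at 1.10 CPM in lymphoma 53 and at most 1.08 CPM in CD4. Lymphoma 53 was thus level with the controls. Cdkn1c, an imprinted inhibitor of cyclin-dependent kinases, rose by 2.64 on the log2 scale (edgeR adjusted p 0.0235).

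Bcl11a, a repressor of fetal globin that B cells also use, fell by 5.90 on the log2 scale, beside the B cell markers that fell in the same libraries. Igfbp4, which binds IGF, fell by 3.86 on the log2 scale and the receptor Igf1r, a gene also on the target list, by 1.94 (edgeR adjusted p 0.0002192 and 0.0059).

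Of 11 tested genes of other high mobility group proteins, 6 were higher, 2 lower and 3 not called. Their median log2 fold change was 0.74 against 0.04 over all tested genes, of which 24.7% were higher and 21.9% lower. Hmgb3, a chromatin protein of blood progenitors, rose by 4.0 on the log2 scale (edgeR adjusted p 9.943e-07), from 12.3 to 17.8 CPM in CD4 to 160 to 320 CPM in lymphoma. Hmgn2 and Hmgb2 rose by 2.04 and 1.93 on the log2 scale. Hmgn3 fell by 4.57 on the log2 scale (edgeR adjusted p 0.0005468) to at most 1.28 CPM in lymphoma, and Hmgxb3 by 1.37.

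**Figure D5:**
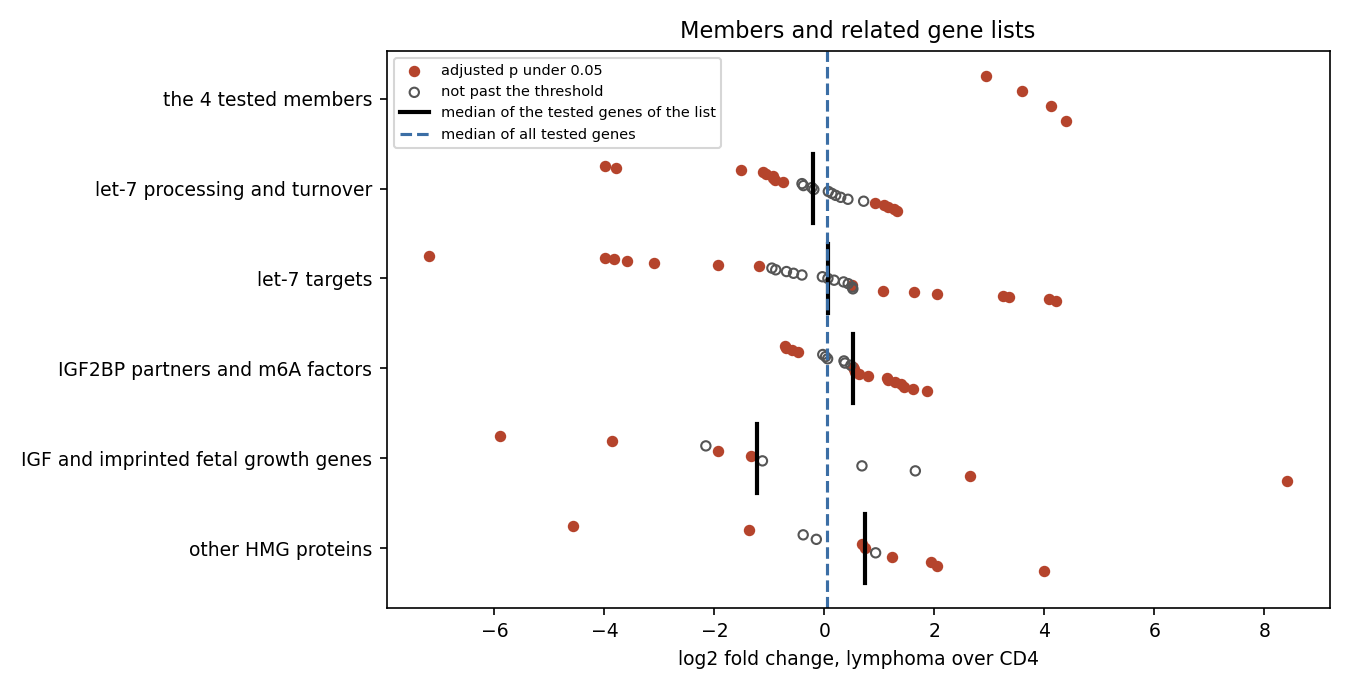
Log2 fold change of the 4 tested members and of the tested genes of the 5 related lists, filled where the adjusted p is under 0.05 and open where it is not, with the median of each list (black bar) and of all tested genes (dashed line, 0.04). The let-7 targets spread from -7.18 (Myc) to 4.22 (Zbtb16). The list of IGF and imprinted fetal growth genes, which also holds other fetal genes, spread from -5.90 (Bcl11a) to 8.41 (Dlk1).

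The genes most like each member were sought by Pearson correlation of log2 CPM among 9424 tested genes with an average log2 CPM of at least 3. High values are common when so many genes are searched over few libraries. The points share library and depth, and over all 9 libraries they also share the group difference, so the values are descriptions. Igf2bp2 was most like Syncrip over the 6 lymphomas (r = 0.9958), an RNA-binding protein on the partner list, followed by Zbtb11 and Trappc8. Syncrip was higher in lymphoma, whereas Zbtb11 and Trappc8 were lower, with log2 fold changes of -0.79 and -1.08. Over all 9 libraries Igf2bp2 was most like Mms22l (r = 0.9977), Cenph and Zfp704. Igf2bp3 was most like Traj18 (r = 0.9994), Traj27 and Gm36975 over the lymphomas, where the Traj genes are joining segments of the T cell receptor alpha locus. Traj18 was at 248, 1.55, 67.7, 356, 351 and 81.1 CPM in lymphomas 34, 53, 56, 70, 72 and 86, so lymphoma 53 was lowest and lymphomas 70 and 72 highest in both genes.

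In CD4 Traj18 was at 617 to 671 CPM, above every lymphoma, the opposite side from Igf2bp3. Over all 9 libraries Igf2bp3 was most like Timp2 (r = 0.9806), Fut8 and Bcl2l13. Hmga1 was most like Copa (r = 0.9874), Ppp1ca and Ubap2 over the lymphomas, and like Nup107 (r = 0.9838), Supt16 and Rps4x-ps over all libraries. Hmga2 was most like Rc3h2 (r = 0.9961), Hap1 and Cpeb2 over the lymphomas, and like Zfp783 (r = 0.9789), Fam175a and Slc1a6 over all libraries. Rc3h2 and Cpeb2 were lower in lymphoma, with log2 fold changes of -0.69 and -1.82, the opposite direction from Hmga2, and Hap1 was not called. No gene was named for more than 1 member.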

How the data were processed

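RNA 3′ ends of 6 lymphoma and 3 CD4 libraries were analysed from a deposited table of raw read counts per Ensembl gene, per the file headers. FastQC, HISAT2, SAMtools and HTSeq, with builds mm10 and GRCm38, are named per the submitters' processing notes; the annotation, the versions and the strand setting are not given in the sources used here. Rows for reads assigned to no gene did not enter library sizes or tests; 27.8% to 49.1% of the reads of a library were in genes. The number of unused columns was 0.

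The tests used edgeR 4.0.16 (R 4.3.3): filterByExpr with a minimum count of 10, TMM scaling, and the robust quasi-likelihood fit of both groups with no covariate. P-values were adjusted by Benjamini-Hochberg over 15401 genes with a threshold of 0.05. The SE is the absolute log2 fold change over the square root of the F statistic, and a prior count of 2 was added for log2 CPM. Members outside the fit were compared by exact permutation over 84 assignments, with p taken as 2 times the smaller one-sided p. Fits with DESeq2 1.42.0, limma voom 3.58.1, other scalings, filters and thresholds, and each library left out were alternatives. The fit was tested on simulated data, where the share of raised genes it called fell just short of the bar first set, which was then lowered; the fit was not changed.

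The members and the gene lists were chosen with earlier results of these data known. Besides the members, the genes named are up to 3 of the largest rises and 3 of the largest falls with an adjusted p under 0.05 in each pathway list and, for each tested member, the 3 genes of highest correlation. Genes named outside this rule were chosen after their values were seen. They are Dgcr8, Zcchc6, Dis3l2, Ago1, Ago2, Ago3, Tnrc6a, Tnrc6b, Tnrc6c, Igf2, Mycn, the let-7 hairpins, the marker genes and the genes that overlap members. Positions and 3′ UTRs came from GENCODE M21 (GRCm38), and microRNAs and promoters from RefSeq (GRCm38.p6); 6 members had a promoter entry. Shared 50-base words were counted against all annotated transcripts. One result on Hmga1 is not reported here.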

Additional observations from a re-analysis of the deposited data

Results flagged for a closer look

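Single libraries far from the other 5 lymphomas were sought in 34 named genes, as a gap in log2 CPM to the nearest value above 0.625 of the range, and 8 were found. Measured in CPM the gap passes in 4 of these, Drosha, Ago4, Zbtb16 and Bcl11a. Chance gives about 1 such flag in 20 independent genes, but these genes share 6 libraries and many were named for their change, so the number of flags is not set against chance. Lymphoma 53 was low in Igf2bp2 (18.5 CPM, the others 29.0 to 37.3 CPM), Igf2bp3 (5.48 CPM, the others 29.8 to 64.9 CPM), Cdk6 (453 CPM, the others 1261 to 2065 CPM), Zbtb16 (0.274 CPM, the others 89.0 to 140 CPM) and Dlk1 (1.10 CPM, the others 165 to 382 CPM). It was high in Drosha (224 CPM, the others 61.8 to 93.0 CPM). Lymphoma 34 was high in Ago4 (1.48 CPM, the others 0 to 0.217 CPM) and in Bcl11a (20.8 CPM, the others 1.57 to 3.47 CPM).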

How the results depend on the processing

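The number of members called was 4, and it was 2 with limma voom and 2 where each library had to hold 10 counts or more of a gene, so that Igf2bp3 and Hmga2 left the test. Without the low-count filter it was again 4, with Lin28a called in place of Hmga2. Leaving out each library in turn gave 3 to 4 members, 5871 to 8137 genes and 44 to 63 of the list genes (7174 and 58 of 93 with all libraries). Igf2bp2 and Hmga1 were called under all 19 alternatives, with log2 fold changes of 3.38 to 3.85 and 2.62 to 3.30. Igf2bp3 was called in 17 of 18 (3.94 to 6.62; voom adjusted p 0.0650) and Hmga2 in 12 of 18 (3.38 to 5.25; adjusted p 0.0015 to 0.213). No alternative reversed the direction of a member. The split of the list genes was 33 higher and 25 lower, and 27 and 30 with upper quartile scaling; over all genes it was 3798 and 3376, with lower calls outnumbering higher ones under upper quartile scaling (3414 and 3707) and limma voom (3435 and 3782). With p taken from absolute differences, the permutation p was 0.131 for Lin28a and 0.429 for Igf2bp1. No paired analysis was possible because the library numbers of the groups do not overlap. Depth limits Lin28a, Lin28b and Igf2bp1, whose counts were at most 32 in any library.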
